A study of Mus musculus with 185 samples.

Results

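The genes described here are 10 genes named as a set of quiescent fibroblast genes lost in Postn-traced cells of the mouse heart, namely Scara5, Gsn, Plac9b, Plac9a, Dpt, Dpep1, Smoc2, Entpd2, Abca8a and Lpl. They were selected on measured values of these same cells. The selection names the lower levels of Scara5, Gsn and Plac9b in Postn-traced than in Postn-negative cells of the capture named Jul29, and does not say how the other genes were chosen. Of the 10 genes, 9 have a row among the 17171 genes in the table used here, and Plac9a has no row. All 9 were above 5 TPM (transcripts per 1000000 transcripts) in at least 25% of all cells, so none of them was left out by a filter on low values.

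The study took single cells from adult mouse hearts, sorted them away from endothelial (CD31+) and blood-derived (CD45+) cells, and caught each on a microfluidic chip where its green fluorescence was read before its mRNA was amplified and sequenced. A periostin allele carrying a tamoxifen-activated Cre recombinase, or a Tcf21 allele of the same kind, switched on an eGFP reporter in cells that expressed the respective gene and in their descendants. Cells came either from hearts a week after permanent ligation of the left coronary artery or from resident fibroblast preparations. Of the resident classes, only the Tcf21-traced one is labelled as uninjured. The study places resident CD31- CD45- cells in hearts without an infarct, although another passage places the CD31- CD45- control cells in the region remote from the infarct. The cells come from 4 captures (Jul24, Jul29, Nov4 and Nov11). Untraced Postn-positive cells of infarcted hearts occur in Jul29, Nov4 and Nov11, and every other class comes from a single capture. The traced cells are Postn-traced in Jul29 and Tcf21-traced in Nov4, so the tracer missing from the untraced cells differs between these captures. No traced cells occur in Nov11, and the labels do not name its tracer. In the study's schemes tamoxifen for the Tcf21 tracer was given before the infarct, and for the Postn tracer after it.

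All mice were about 5 months old, on a C57BL/6 background, carried the R26-eGFP reporter and received tamoxifen chow. Activated cells of infarcted hearts comprised 27 Postn-traced cells, 24 Postn-negative cells and 6 cells that contained Postn transcripts without the tracer (all Jul29), 44 Tcf21-traced and 19 untraced Postn-positive cells (Nov4), and 29 untraced cells of the scar with 3 untraced Postn-positive cells (Nov11). Resident cells, all of Jul24, comprised 17 Tcf21-traced cells, 12 Postn-negative cells, 3 Tcf21-positive cells with Postn and 1 other cell with Postn. The labels of the resident cells with Postn do not say whether they were traced. In the mice of the Postn tracer the knock-in interrupts 1 of the periostin copies. Mice of the Tcf21 tracer carried the Cre recombinase on a Tcf21 allele instead, so Postn-traced and Tcf21-traced cells also differ in genotype. Tamoxifen labelling is incomplete, and hearts of several mice were pooled. The labels give neither the mouse nor the full genotype of a cell, and they use Postn itself to name classes, so Postn levels of the classes are not results. Because no cell can be tied to a mouse, every class counts as 1 sample, there are no replicates, and no test was run. An SD below is the spread between cells, and an interval is the exact 95% Clopper-Pearson interval of a share of cells, which covers counting error only.

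Fibroblasts of the uninjured heart keep up a loose collagen matrix and express a set of membrane enzymes, transporters and matrix proteins. After an infarct they divide, switch on periostin, smooth muscle actin and collagens, and build the scar. Periostin is a secreted matrix protein that is nearly silent in the healthy adult heart, whereas Tcf21 is a transcription factor of resident cardiac fibroblasts.

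Values are the deposited log2 (TPM + 1), a level that already takes transcript length into account. The study states an average read depth but no number of reads for single cells, so the number of genes above 5 TPM in a cell stands in for its depth. It ran from 141 to 5419 with a median of 2770, and it moved with the classes: the median was 2264 in resident Tcf21-traced, 2342 in Postn-negative, 3643 in Postn-traced, 3134 in activated Tcf21-traced and 3177 in scar cells. In 180 of all cells at least 3 of 6 fibroblast markers were above 5 TPM, and Dcn was the most abundant of these markers in 10 of 11 combinations of class and capture. Endothelial markers never reached 3 in a cell, whereas 21 cells had at least 3 of 6 smooth muscle markers, with Tagln the most abundant and Myh11, Cnn1 and Myocd above 5 TPM in few or no cells. The summed level of the smooth muscle markers was 2.73 in resident Tcf21-traced, 3.19 in Postn-negative, 6.77 in Postn-traced and 6.06 in activated Tcf21-traced cells, and its part in the levels below was not tested.

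Gsn encodes gelsolin, which severs and caps actin filaments, and was the most abundant of the 9 measured genes. Its mean level ranked 45th among all genes of the table. In resident Tcf21-traced cells Gsn had a lowest, median and highest level of 12.71, 14.09 and 14.98, and it made up 1.69% of all transcripts. In Postn-negative infarct cells the corresponding levels were 7.63, 14.49 and 14.76, with 2.03% of transcripts. Gsn was thus high in nearly every cell of both classes. Postn-traced cells ranged from 3.58 through 8.37 to 14.09, with 0.137% of transcripts. In activated Tcf21-traced cells Gsn ranged from 1.75 through 10.22 to 14.27, with 0.292% of transcripts. Resident Tcf21-traced and Postn-negative cells thus overlapped widely. The lowest resident Tcf21-traced cell lay above the medians of the Postn-traced and the activated Tcf21-traced class, whose highest cells reached into the resident range. Gsn stayed above 5 TPM in 27 of 27 Postn-traced and 43 of 44 activated Tcf21-traced cells, so its lower level was a difference in amount and not in the number of cells with the transcript. The gene lies on chromosome 2 at 35256380 to 35307892 (plus strand, GRCm38).

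**Figure D1:**
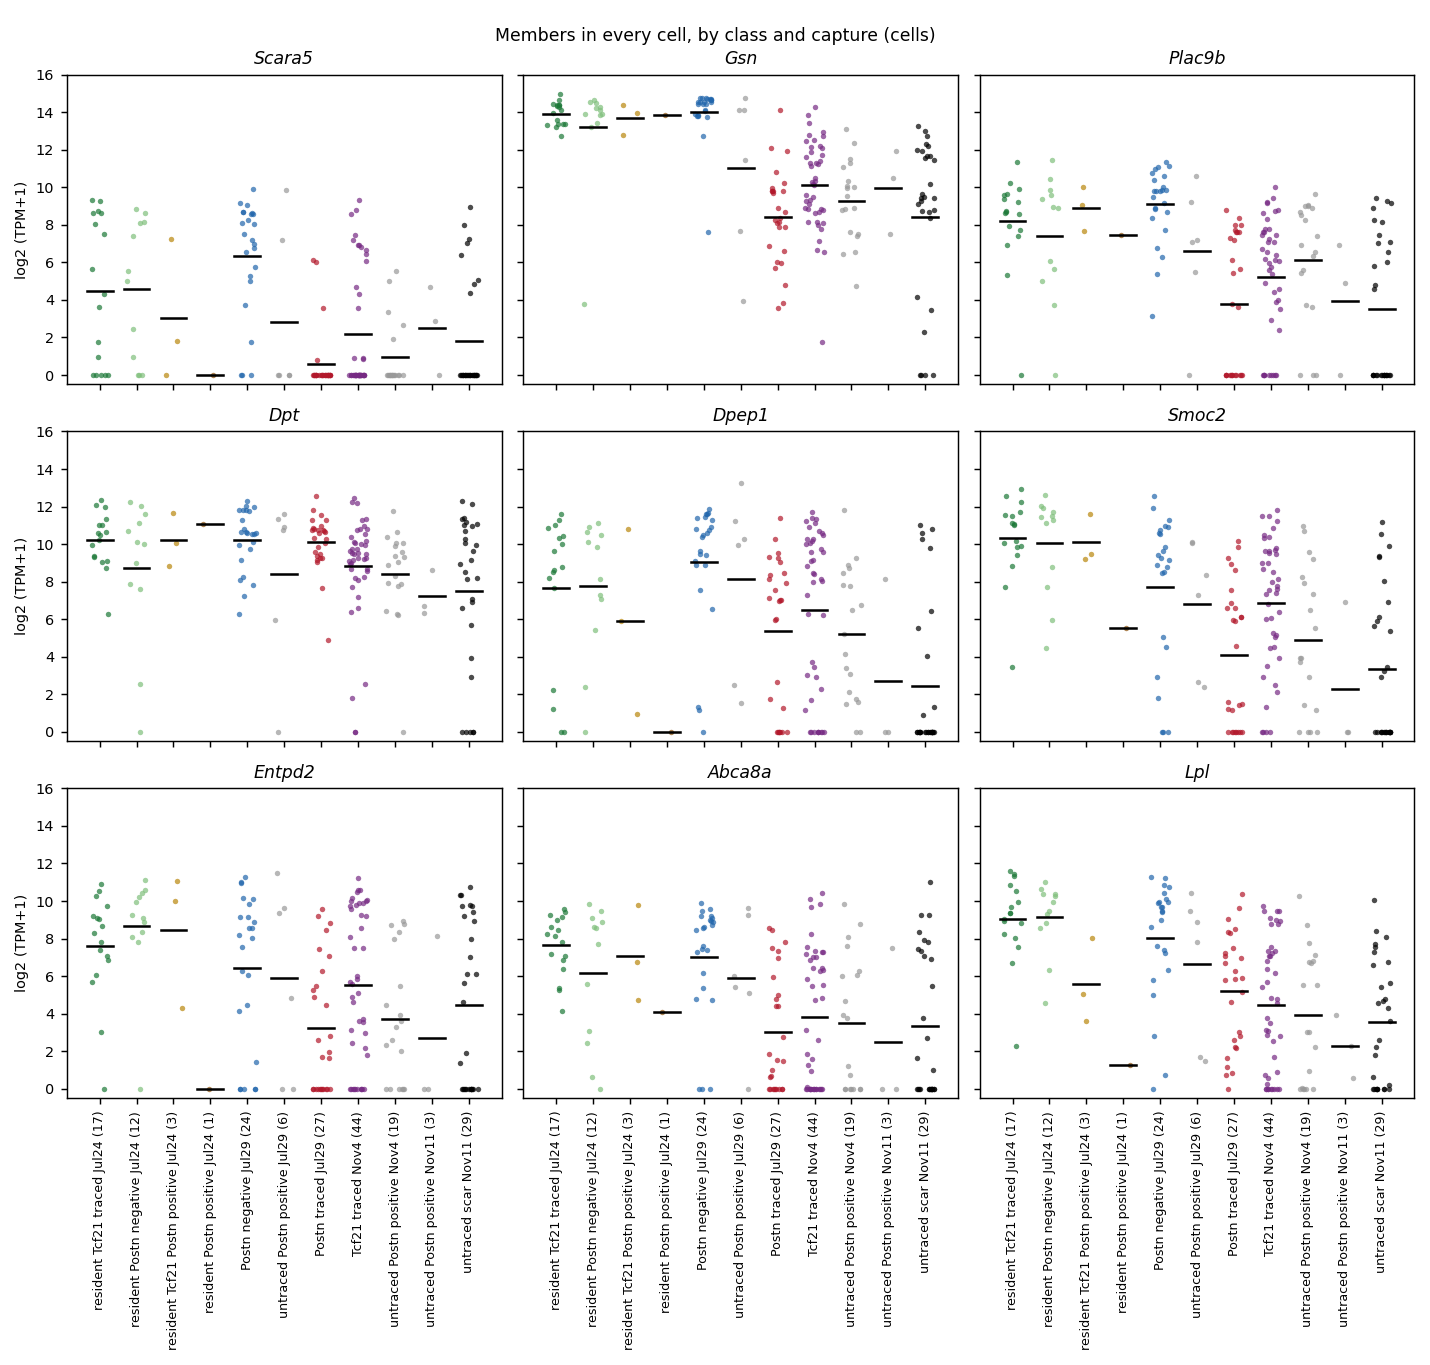
Level of each of the 9 measured genes, as log2 (TPM + 1) on the vertical axis, in every cell of each class and capture on the horizontal axis (number of cells in brackets); each point is a cell and each bar a class mean. Gsn forms a tight band in the resident Tcf21-traced cells (mean 13.93) and spreads downwards in the Postn-traced cells (mean 8.42), whereas Dpt has means of 10.21 and 10.13 in the same classes.

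Dpt encodes dermatopontin, a small matrix protein that binds decorin and helps collagen fibrils form, and it went against the name of the set. Its lowest, median and highest levels were 6.27, 10.59 and 12.31 in Postn-negative cells. In Postn-traced cells they were 4.89, 10.58 and 12.57, and every cell of both classes was above 5 TPM. Dpt was therefore retained, not lost, in Postn-traced cells, with medians that differed by far less than the SDs of 1.66 and 1.46. Its mean was 10.21 ± 1.501 in resident Tcf21-traced, 8.81 ± 2.83 in activated Tcf21-traced and 7.53 ± 4.17 in scar cells. The set is referred to below as the 9 measured genes, since its name does not hold for Dpt. Dpt lies on chromosome 1 at 164796644 to 164824266 (plus strand).

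Promoter windows were read for 7 of the 10 genes from RefSeq (GRCm38.p6), each of 300 bases around a transcription start; Scara5, Smoc2 and Lpl were not among them. The windows of Dpt, Gsn and Dpep1 are shown because these 3 genes hold the hexamer CAGCTG and include both the most retained gene and one of the most reduced. The Dpt window is chr1:164796413-164796712 on the plus strand, the Gsn windows with CAGCTG are chr2:35256109-35256408 and chr2:35266494-35266793 on the plus strand, and the Dpep1 window is chr8:123185985-123186284 on the plus strand. A further Gsn window, chr2:35282130-35282429, holds 3 CCAAT and no CAGCTG and is not shown. Capitals mark CAGCTG and TATAAA.
Dpt: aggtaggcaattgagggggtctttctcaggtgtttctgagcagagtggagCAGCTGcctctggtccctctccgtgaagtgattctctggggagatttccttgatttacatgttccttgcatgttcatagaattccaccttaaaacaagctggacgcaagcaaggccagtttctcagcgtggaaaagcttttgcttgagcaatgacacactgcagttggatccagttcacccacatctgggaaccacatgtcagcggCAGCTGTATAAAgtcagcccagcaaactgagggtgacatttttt
Gsn, upstream start: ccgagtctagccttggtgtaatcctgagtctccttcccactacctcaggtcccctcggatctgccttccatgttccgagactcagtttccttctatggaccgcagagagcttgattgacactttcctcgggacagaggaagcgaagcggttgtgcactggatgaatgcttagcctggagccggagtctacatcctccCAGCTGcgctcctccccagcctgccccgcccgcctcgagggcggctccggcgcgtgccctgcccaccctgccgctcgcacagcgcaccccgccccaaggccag
Gsn, next start: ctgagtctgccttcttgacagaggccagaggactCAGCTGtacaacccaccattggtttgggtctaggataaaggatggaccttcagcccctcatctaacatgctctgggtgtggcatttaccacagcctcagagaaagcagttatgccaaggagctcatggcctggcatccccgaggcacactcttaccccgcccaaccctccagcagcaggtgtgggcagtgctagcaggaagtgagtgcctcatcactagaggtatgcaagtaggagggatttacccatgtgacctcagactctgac
Dpep1: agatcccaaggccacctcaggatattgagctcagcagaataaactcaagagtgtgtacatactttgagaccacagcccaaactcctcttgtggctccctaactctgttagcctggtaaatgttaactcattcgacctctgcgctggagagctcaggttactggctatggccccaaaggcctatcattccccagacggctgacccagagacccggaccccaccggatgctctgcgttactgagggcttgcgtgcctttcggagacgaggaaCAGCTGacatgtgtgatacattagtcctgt
Both strands were searched. CAGCTG lies at bases 51 and 257 of the Dpt window, base 198 of the upstream and base 35 of the next Gsn window, and base 271 of the Dpep1 window, and 16.3% of 32851 promoter windows of the table hold it. TATAAA was found in Dpt alone, at base 263 and adjoining CAGCTG, against 13.6% of all windows. This TATAAA begins 12 bases downstream of the transcription start of its window, not upstream of it. GGGCGG was present in Entpd2, Gsn, Plac9a and Plac9b against 35.7% of all windows. CCAAT was present in Gsn against 37.4%, GGAATG in Abca8a, Dpep1 and Entpd2 against 14.7%, TGANTCA in Entpd2 against 7.81%, TTCNNNGAA in Dpt against 8.30%, and TGTTTAC in none against 3.65%. A match describes the letters of the window and does not show a bound factor.

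Scara5 encodes a class A scavenger receptor that takes up ferritin. Its levels in the classes of Jul29 made the selection and are given as a description. The share above 5 TPM was 83.3% (62.6% to 95.3%) for the 24 Postn-negative cells, of which 20 had it, and 11.1% (2.35% to 29.2%) for the Postn-traced class, 3 cells of 27. In Postn-negative cells the lowest, median and highest levels were 0, 7.35 and 9.93, against 0, 0 and 6.11 in Postn-traced cells. The ranges overlapped, and 3 Postn-negative cells were listed at 0. Of resident Tcf21-traced cells 10 of 17 were above 5 TPM (58.8%, 32.9% to 81.6%), and of activated Tcf21-traced cells 14 of 44 (31.8%, 18.6% to 47.6%). Among cells above 5 TPM the mean level was 7.37 in the resident and 6.70 in the activated Tcf21-traced class, and the intervals of the shares overlap. Scara5 lies on chromosome 14 at 65666403 to 65764826 (plus strand).

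Other genes of the set act at the cell surface. Abca8a, an ATP-binding cassette transporter of lipids, was above 5 TPM in 17 of 17 resident Tcf21-traced and 24 of 44 activated Tcf21-traced cells, with lowest, median and highest levels of 4.12, 8.12 and 9.59 against 0, 3.92 and 10.44. Its activated cells split widely, and some reached the levels of the highest resident cells. Dpep1, a membrane dipeptidase that cleaves leukotrienes, had a mean of 7.67 ± 4.07 in resident and 6.48 ± 4.34 in activated Tcf21-traced cells, a difference smaller than either SD. In Postn-negative cells Dpep1 reached a median of 10.43, and in scar cells it was above 5 TPM in 8 of 29. Abca8a lies on chromosome 11 at 110025634 to 110095978 (minus strand) and Dpep1 on chromosome 8 at 123186242 to 123201812 (plus strand).

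Entpd2 encodes an enzyme that degrades extracellular ATP. It had a median of 8.29 in resident and 5.62 in activated Tcf21-traced cells, and of 1.96 in Postn-traced cells, while the highest cell of each class lay between 9.58 and 11.20. Cells with high Entpd2 thus occurred in each of these classes. In the same order, the share of cells above 5 TPM was 94.1%, 70.5% and 48.1%. The mean level among those cells was 8.11, 7.64 and 6.34, so the classes differed in both. Reads of the Entpd2 row are uncertain, because its exons overlap those of Npdc1 on the same strand and 23.05% of its 100-base pieces also occur in Npdc1 transcripts. Npdc1, looked up for this overlap after the values of the set were seen, differed in the other direction between Postn-traced and Postn-negative cells (2.98), and its correlation with Entpd2 over all cells was 0.02. Entpd2 lies on chromosome 2 at 25395874 to 25401321 (plus strand).

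Among secreted proteins of the set, Smoc2 is a calcium-binding matrix protein related to SPARC. All 17 resident Tcf21-traced cells were above 5 TPM for Smoc2, with lowest, median and highest levels of 3.43, 11.01 and 12.93. Activated Tcf21-traced cells had 0, 7.56 and 11.80, and Postn-traced cells 0, 4.58 and 10.15. Smoc2 was therefore highest in resident cells, lower in activated Tcf21-traced cells and lowest among these in Postn-traced cells, with overlap of all ranges. It also had a lower mean in the Postn-negative infarct cells (7.74 ± 4.03) than in both large resident classes (10.30 ± 2.23 and 10.05 ± 2.67). The gene lies on chromosome 17 at 14279506 to 14404790 (plus strand).

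Lpl, the lipase that frees fatty acids from circulating triglycerides, had lowest, median and highest levels of 2.30, 9.34 and 11.59 in resident Tcf21-traced cells. In activated Tcf21-traced cells these were 0, 4.69 and 9.72, so the highest activated cell lay a little above the resident median. Postn-traced cells had a median of 5.87, above that of the activated Tcf21-traced class. Lpl lies on chromosome 8 at 68880491 to 68907448 (plus strand).

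Plac9b encodes a small secreted protein. Its level was 0, 8.70 and 11.36 (lowest, median and highest) in resident Tcf21-traced cells, and 0, 6.10 and 10.01 in activated Tcf21-traced cells. Postn-traced cells had 0, 3.76 and 8.77, and 12 of 27 were listed at 0, whereas all 24 Postn-negative cells were above 5 TPM. These classes are named in the selection, and the levels describe it. The Plac9b row cannot be assigned to this gene alone: 96.5% of its 100-base transcript pieces also occur in Plac9a and 61.7% in the nearby copy Gm9780. Plac9b lies on chromosome 14 at 26167405 to 26182480 and Plac9a at 25887506 to 25903100, both on the minus strand.

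**Figure D2:**
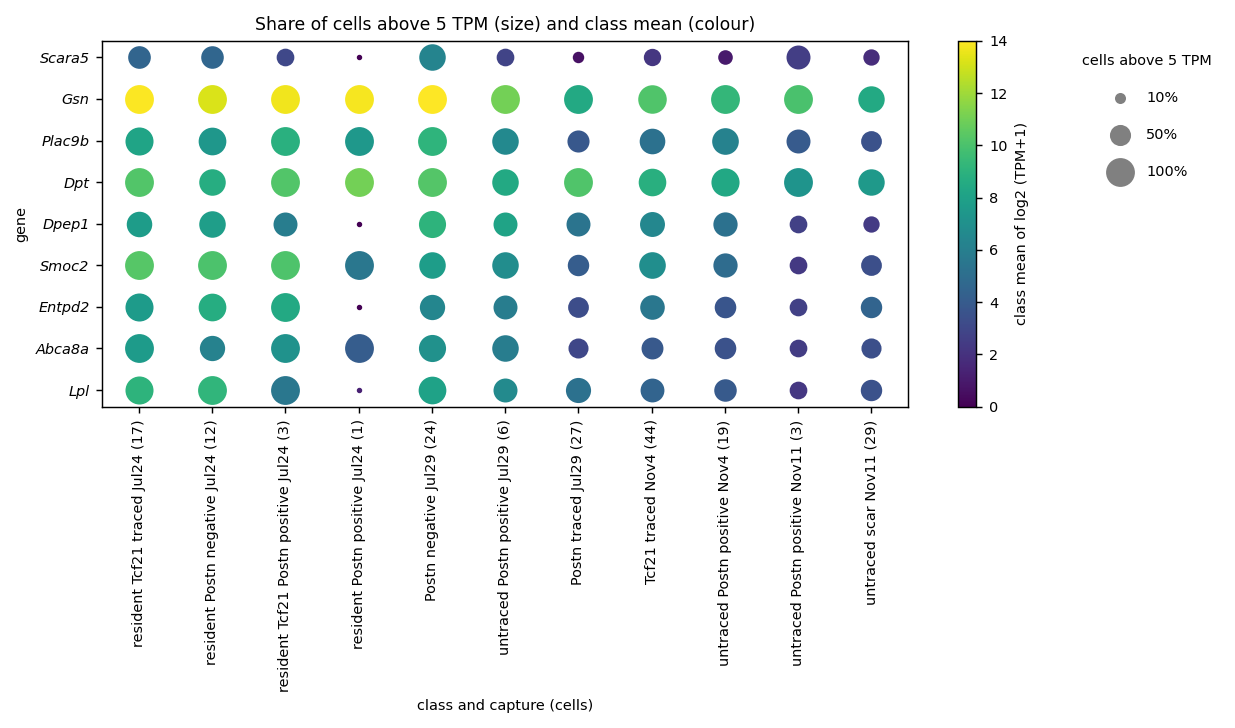
Share of cells above 5 TPM (area of the circle) and class mean of log2 (TPM + 1) (colour) for each measured gene on the vertical axis and each class and capture on the horizontal axis, with the number of cells in brackets; the smallest dot marks 0%. Gsn and Dpt keep large circles in all of the larger classes, with shares from 82.8% to 100%, while the circle of Scara5 shrinks from 83.3% in Postn-negative to 11.1% in Postn-traced cells.

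The class means were ordered over the 8 combinations of class and capture with at least 5 cells. Postn-negative infarct cells led the order for Scara5, Gsn, Plac9b, Dpt and Dpep1, and a resident class led it for Smoc2, Entpd2, Abca8a and Lpl. Postn-traced cells came last for Scara5, Gsn, Entpd2 and Abca8a, and scar cells came last for Plac9b, Dpt, Dpep1, Smoc2 and Lpl. Of 63 steps between neighbours in these orders, 1 exceeded the smaller of the SDs of its classes, that of Gsn from resident Tcf21-traced (13.93 ± 0.62) to resident Postn-negative cells (13.19 ± 2.997). It rests on 1 of 12 cells, with a Gsn level of 3.77: without this cell, left out after the values were seen, the latter mean is 14.045, and the resident Postn-negative class leads the order for Gsn, above Postn-negative infarct cells (14.027). With all cells, the other neighbours did not differ beyond the spread between their cells. The largest steps were then 2.76 for Dpep1, 2.31 for Smoc2, 2.19 for Gsn and 2.06 for Abca8a. Without the cell low in Gsn, further steps exceeded the smaller SD. For Gsn this was the step from resident Tcf21-traced (SD 0.62) to untraced Postn-positive cells of Jul29, then the largest of all. For Entpd2 it was that from resident Postn-negative (9.43 ± 1.10) to resident Tcf21-traced cells (7.63). For Smoc2 it was that from resident Tcf21-traced (10.30 ± 2.23) to Postn-negative infarct cells (7.74). Sorting makes such steps small, so they do not show how far apart the classes are.

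The contrast named in the selection, Postn-traced minus Postn-negative cells of Jul29, is given as a description. By it 8 of the 9 genes were lower by more than 2 log2 units, where 0.648% of 15733 genes above 5 TPM in at least 1 cell (a number that differs from the study's own for that limit, for a reason not known), and 2.23% of 4028 genes above 5 TPM in at least 25% of cells, were that much lower. The differences of class means were -5.73 for Scara5, -5.60 for Gsn and -5.28 for Plac9b. They were -4.02 for Abca8a, -3.66 for both Smoc2 and Dpep1, -3.16 for Entpd2, -2.84 for Lpl and -0.11 for Dpt. The differences of Smoc2, Entpd2, Lpl and Dpt did not exceed the smaller SDs between cells of 3.71, 3.47, 3.06 and 1.46. This contrast is the one named in the selection, so its differences and the other values of these classes for the set describe it and support nothing further. Among 1460 genes above 5 TPM in at least 50% of Postn-negative cells, Scara5, Gsn and Plac9b ranked 2, 3 and 4 by this difference, as follows from the choice. Gstm1, a glutathione transferase outside the set, ranked 1 with -6.12, and the next gene after Plac9b was Ifi205 with -5.10, named after its value was seen. Dpt ranked 455. After subtracting from each cell the median level of the genes it held above 5 TPM (centring), the difference of Dpt changed sign to 0.42, and it was 0.26 with all eGFP-negative cells of Jul29 as the second class.

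The comparison of activated with resident Tcf21-traced cells asks how the same lineage differs after an infarct. The selection does not name its classes, but it was made with results of these cells known, so the values are not independent of it. All 9 genes had lower means in the activated cells, and 7 were lower by more than 2 log2 units, against 0.464% of genes above 5 TPM in at least 1 cell and 1.49% of those above it in at least 25% of cells. Their median difference was -2.95, against a median of 0.93 over the 4028 more widely detected genes and 0.16 over the 15733 genes. The set thus lay on the low side and the more widely detected genes on the high side. Lpl had the largest difference (-4.57), followed by Abca8a (-3.80), Gsn (-3.79), Smoc2 (-3.46) and Plac9b (-2.95). These 5 differences exceeded the smaller SD between cells of their classes. Those of Scara5 (-2.30), Entpd2 (-2.10), Dpt (-1.39) and Dpep1 (-1.19) did not. The activated cells were captured on Nov4 and the resident cells on Jul24, so capture and condition cannot be told apart. With TPM averaged on the linear scale before taking logs, 2 genes passed 2 log2 units, Gsn (-2.53) and Lpl (-2.70), and the median of the set was -1.64. The median level of genes above 5 TPM differed by -0.45 between the classes, and centring each cell on it left 5 genes past 2 log2 units.

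**Figure D3:**
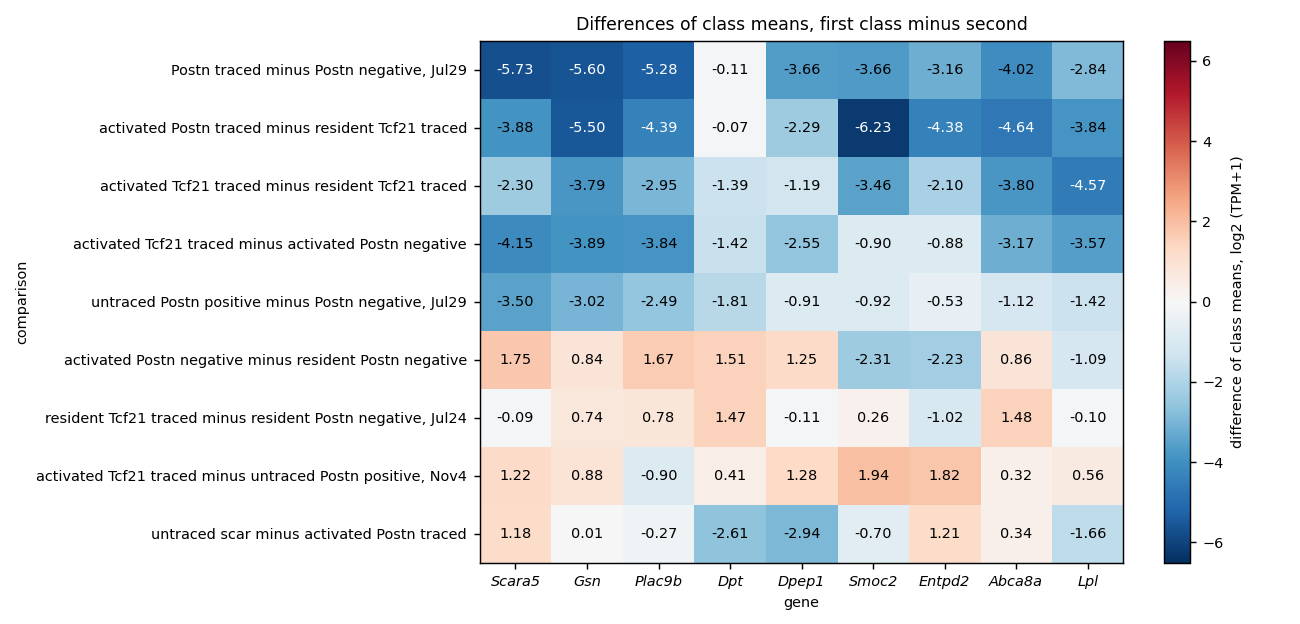
Difference of class means in log2 (TPM + 1), first class minus second, for the 9 measured genes (horizontal axis) in 9 comparisons (vertical axis); blue is lower and red is higher in the first class. Every entry is below 0 in the comparison of activated with resident Tcf21-traced cells (-1.19 to -4.57), Dpt is near 0 in both comparisons of Postn-traced cells at the top (-0.11 and -0.07), and cells of the resident classes differ from each other by -1.02 to 1.48.

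Postn-traced cells were also set against resident Tcf21-traced cells, which share the Postn-traced class with the selecting contrast and the resident class with the comparison above. Here 8 of 9 genes were lower by more than 2 log2 units (background 0.528% and 1.74% by the less and the more strict filter), with a median of -4.38 against 0.997 over the more widely detected genes. Smoc2 had the largest difference (-6.23), then Gsn (-5.50), Abca8a (-4.64), Plac9b (-4.39) and Entpd2 (-4.38). The difference of Dpt was -0.07, and 0.42 after centring. Dpt thus had about the same level in both classes. Its difference and that of Dpep1 (-2.29) were smaller than the smaller SD between cells, and the other 7 were larger. Jul29 and Jul24 cannot be told apart from the condition, and centring left 7 genes past 2 log2 units.

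Activated Tcf21-traced cells were lower than Postn-negative infarct cells for all 9 genes, and by more than 2 log2 units for 6 of them (0.420% and 1.42% of genes). The Postn-negative class is that of the selecting contrast. Scara5 (-4.15), Gsn (-3.89) and Plac9b (-3.84) had the largest differences, whereas those of Smoc2 (-0.90) and Entpd2 (-0.88) were within SDs of 3.49 to 4.08. Those of Dpep1 (-2.55) and Dpt (-1.42) were also within the smaller SDs of 3.45 and 1.66. With medians over cells in place of means, Smoc2 and Entpd2 differed by -1.65 and -2.50, and 7 genes passed 2 log2 units. The median of the set was -3.17, against 0.72 for the more widely detected genes. On the linear scale 4 genes passed 2 log2 units and the median was -1.23; it ran from -3.90 to -1.23 over the alternatives. The classes come from Nov4 and Jul29, so capture and class cannot be told apart.

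Among Postn-negative cells of infarcted and resident preparations, the set had no common direction. Postn-negative cells of infarcted hearts were lower than resident Postn-negative cells by more than 2 log2 units for Smoc2 (-2.31) and Entpd2 (-2.23), that is for 2 of 9 genes (0.604% and 1.79% of genes). Scara5 (1.75), Plac9b (1.67), Dpt (1.51) and Dpep1 (1.25) had higher means in the infarct cells, and so had Abca8a (0.86) and Gsn (0.84), while Lpl was lower (-1.09). With all cells, the 9 differences were within the smaller SD. The median of the set was 0.86 against 0.39 over the more widely detected genes, and was 0.26 on the linear scale and 0.49 with medians over cells. The higher means rest in part on the resident cell with a Gsn level of 3.77. In it Scara5, Plac9b, Dpt, Dpep1, Entpd2 and Abca8a were listed at 0. Without it the median was 0.30 and Gsn differed by -0.02. Scara5 (1.34), Plac9b (0.99), Dpt (0.71), Dpep1 (0.54) and Abca8a (0.30) still had higher means in the infarct cells. Entpd2 then differed by -3.02 and Smoc2 by -2.68, beyond the smaller SDs of 1.10 and 2.45. Of the 12 resident Postn-negative cells, 1 had at least 3 myeloid markers above 5 TPM and 11 had at least 3 fibroblast markers. Whether the cell low in Gsn is that with myeloid markers was not tested. With TPM averaged on the linear scale no gene passed 2 log2 units. These classes come from different captures, Jul29 and Jul24, and the first is in the contrast named in the selection.

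Within the resident capture, Tcf21-traced and Postn-negative cells were compared with each other. None of 9 genes was lower by more than 2 log2 units in the Tcf21-traced cells (0.896% and 2.83% of genes), and the differences ran from -1.02 for Entpd2 to 1.48 for Abca8a with a median of 0.26, or -0.22 with medians over cells in place of means. For Gsn the difference of 0.74 exceeded the smaller SD of 0.62, and 1 Postn-negative cell with a Gsn level of 3.77 stood far below the others. Of the 12 cells of this class, 1 had at least 3 myeloid markers above 5 TPM and 11 had at least 3 fibroblast markers. Whether the cell low in Gsn is that with myeloid markers was not tested. Without the cell low in Gsn the difference of Gsn was -0.12, and the median of the set was -0.12 as well. Entpd2 then differed by -1.80, beyond the smaller SD of 1.10, Dpep1 by -0.82 and Scara5 by -0.51. Abca8a (0.92), Dpt (0.68) and Plac9b (0.10) still had higher means in the Tcf21-traced cells. With all cells, the difference of the other 8 genes was within the smaller SD.

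Within the Nov4 capture, Tcf21-traced cells were set against cells with Postn but without that tracer, both from infarcted hearts. The selection does not name these classes, but it was made with their values known. None of 9 genes was lower by more than 2 log2 units (0.362% and 1.14% of genes). The median difference was 0.88, against -0.04 over the more widely detected genes. Smoc2 (1.94), Entpd2 (1.82), Dpep1 (1.28) and Scara5 (1.22) had the largest differences, and Plac9b was the single gene with a lower mean in the Tcf21-traced cells (-0.90). All were smaller than the SDs between cells, and the classes overlapped for every gene. These differences depend on the average: with medians over cells Smoc2 differed by 3.63, Dpep1 by 3.06, Entpd2 by 2.32 and Scara5 by 0, and on the linear scale Scara5 differed by 3.26.

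Untraced cells of the scar (Nov11) were set against Postn-traced cells (Jul29), a class of the selecting contrast. Of 9 genes 2 were lower by more than 2 log2 units, Dpep1 (-2.94) and Dpt (-2.61), where 3.81% and 14.2% of genes were that much lower. The median of the set was -0.27, against -0.93 over the more widely detected genes, and Gsn differed by 0.01. Averaged on the linear scale none of the 9 passed it. The median of the set was -1.64 with medians over cells and -1.15 after centring, and it changed sign to 0.51 on the linear scale and to 0.41 without the shallow cells, those with fewer than 50% of the median number of genes of their capture. For Dpt, 5 of 29 scar cells were listed at 0, while the remaining cells reached 12.32. In this class 5 cells had fewer than 300 genes above 5 TPM, and 6 had fewer than 50% of the median of their capture.

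The 6 cells of Jul29 with Postn but without the tracer were compared with the Postn-negative cells of the same capture. Lower by more than 2 log2 units were 3 of 9 genes, Scara5 (-3.50), Gsn (-3.02) and Plac9b (-2.49), against 2.78% and 10.1% of genes, and the median of the set was -1.42 against -0.21. The Postn-negative class is that of the selecting contrast, and the selection names these 3 genes. The count therefore restates the selection in part and supports nothing further. On the linear scale none of the 9 passed 2 log2 units. The 6 cells were of very different kinds: their Gsn levels were 14.11, 14.73, 11.44, 7.68, 3.94 and 14.12. In the same order their Postn levels were 7.54, 10.63, 10.69, 12.07, 11.22 and 10.06, and the number of the 9 genes above 5 TPM was 9, 9, 8, 3, 3 and 8. Of these cells 4 thus had nearly the whole set together with Postn, and Scara5 was above 5 TPM only in the first and second (7.18 and 9.85).

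Resident cells with Postn were 4. The 3 labelled Tcf21-positive had Gsn levels of 12.79, 14.38 and 13.94 beside Postn levels of 6.08, 12.03 and 7.10. Each had 8 of the 9 genes above 5 TPM. The other one had Gsn at 13.83 and Dpt at 11.05 beside Postn at 13.13, with Scara5, Dpep1 and Entpd2 listed at 0. High Postn and high Gsn therefore occurred in the same cells. The 3 Nov11 cells with Postn but no tracer had Gsn at 10.47, 7.50 and 11.90, with 9, 4 and 2 of the genes above 5 TPM.

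**Figure D4:**
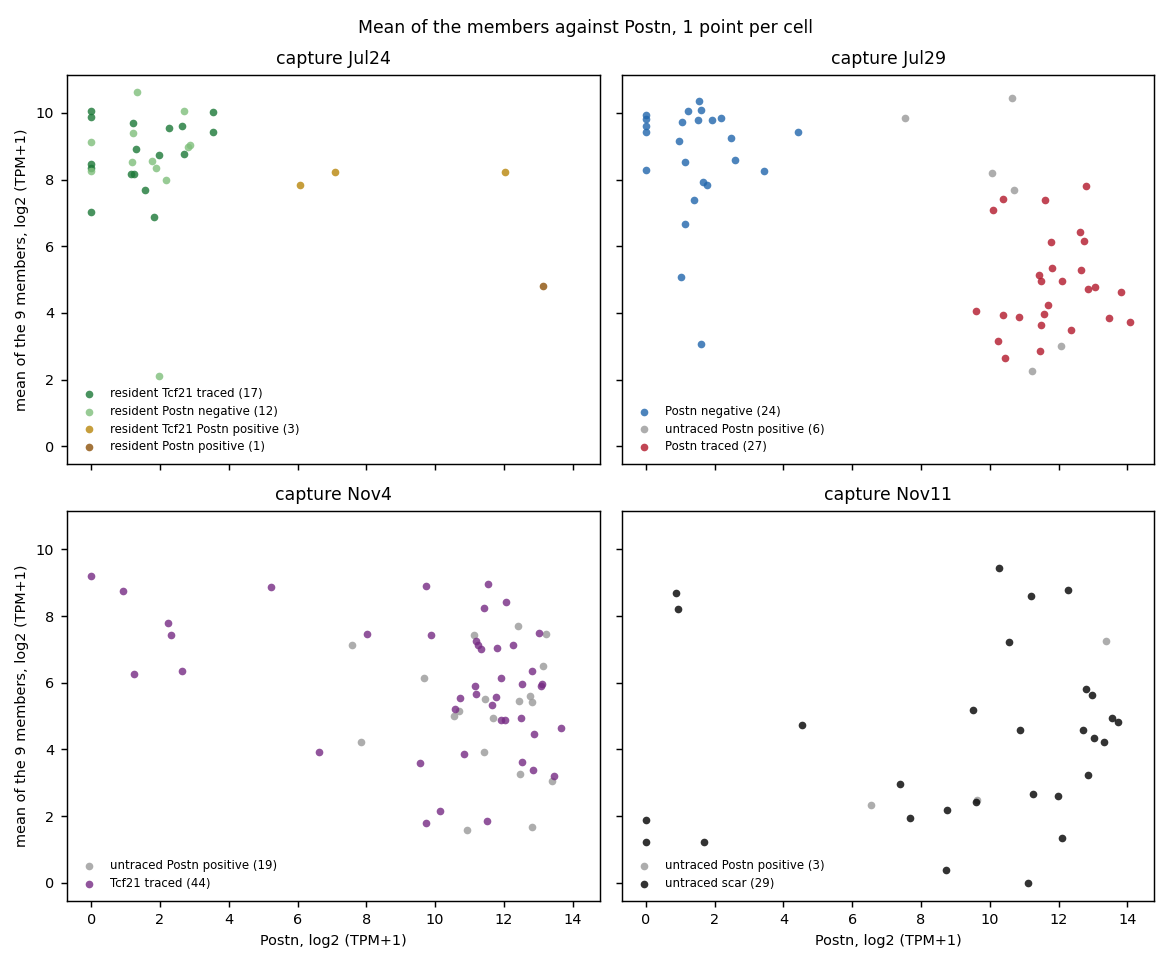
Mean log2 (TPM + 1) of the 9 measured genes (vertical axis) against Postn (horizontal axis), 1 panel per capture and 1 point per cell, coloured by class. In Jul29 the Postn-negative cells (Postn mean 1.44) lie left and mostly high and the Postn-traced cells (Postn mean 11.81) right and low, while 4 of the 6 untraced Postn-positive cells lie right with a mean of 7.68 to 10.46.

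Per cell, the number of the 9 genes above 5 TPM gives the state of the set as a whole. Its median was 9 in Postn-negative cells (range 4 to 9, with all 9 in 14 of 24 cells) and 8 in resident Tcf21-traced cells (7 to 9). It was 7 in activated Tcf21-traced cells (2 to 9), 6 in untraced Postn-positive cells of Nov4 (2 to 8), and 5 in Postn-traced (3 to 9) and scar cells (0 to 9). Cells with all 9 genes were rare among activated traced cells, 5 of 44 with the Tcf21 and 1 of 27 with the Postn tracer. The values of Postn-traced and Postn-negative cells restate the contrast that made the selection. The median number of all genes above 5 TPM was 3643 and 2342 in these classes, and the part of depth was not tested.

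**Figure D5:**
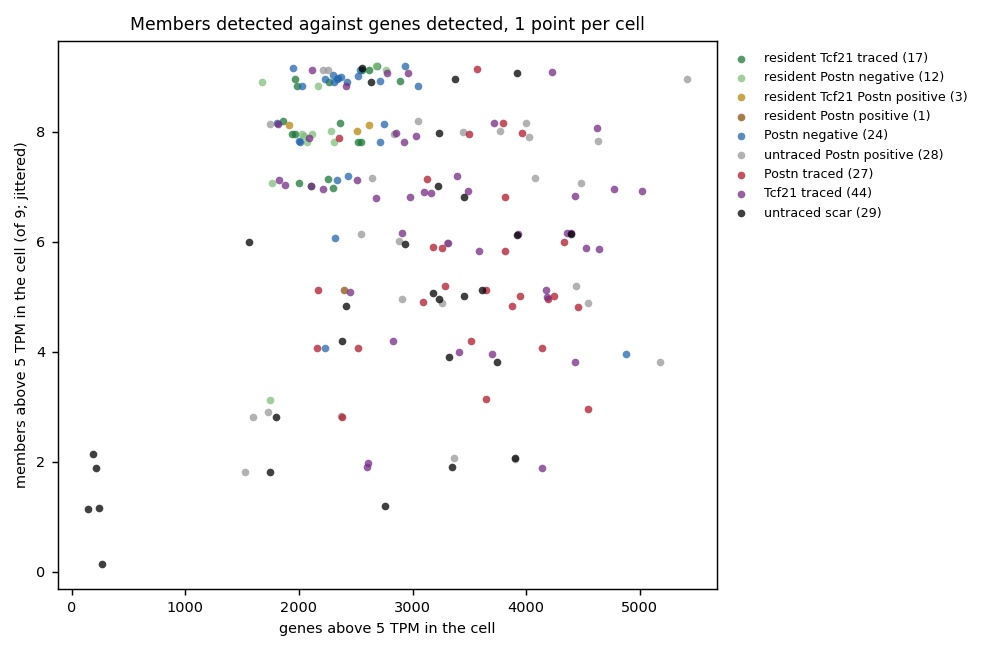
Number of the 9 measured genes above 5 TPM (vertical axis, points shifted slightly to show overlap) against the number of all genes above 5 TPM (horizontal axis), 1 point per cell, coloured by class. Postn-negative cells sit near 9 genes at a median of 2342 genes in all and Postn-traced cells near 5 at 3643, and the scar cells at the lower left have 0 to 2 genes of the set and under 300 genes in all.

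Over the 44 activated Tcf21-traced cells the mean of the 9 genes had a Pearson r of -0.38 and a Spearman rho of -0.32 with Postn. These cells share 1 capture but not depth: the mean of the set had r = -0.39 with the number of genes above 5 TPM, and Postn had r = 0.60 with it, and the part of depth in the relation was not tested. Gsn had the most negative relation to Postn (r = -0.49, rho = -0.44), Entpd2 (-0.05) and Abca8a (-0.13) had the r nearest to 0, and that of Plac9b was positive (0.16). With Tcf21 the mean of the set had r = 0.41. In the 29 scar cells the r of the mean of the set with Postn was 0.09 and rho was 0.25, and r ran from -0.25 for Abca8a to 0.44 for Smoc2. The mean of the set had r = 0.45 with the number of genes above 5 TPM in these cells. The relation to Postn within 1 class was therefore weak, and was not of the same sign in both captures. In the 27 Postn-traced cells the mean of the set had r = 0.07 with Postn and 0.65 with Tcf21. All of these describe cells that share a capture, and no p is given.

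Taken pairwise, the 9 genes varied together across all cells, and to a differing degree within the classes. The median r over the 36 pairs was 0.41 over all cells, with the lowest for Dpt and Abca8a (0.18) and the highest for Gsn and Lpl (0.55). Within classes the median r was 0.06 in resident Tcf21-traced, 0.20 in Postn-negative, 0.17 in Postn-traced and 0.28 in activated Tcf21-traced cells. It was 0.26 in untraced Postn-positive cells of Nov4, 0.38 in resident Postn-negative cells (-0.054 without the cell with a Gsn level of 3.77) and 0.44 in scar cells, the class with the widest range of depth. The pooled values include the differences between classes, among them the selecting contrast.

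The genes most like the mean of the set over all cells, among 4019 genes above 5 TPM in at least 25% of cells and outside the set, were Sparcl1 (r = 0.72), Gstm1 (0.70), Pcsk6 (0.66), Crispld2 (0.61) and Serping1 (0.61). Sparcl1 encodes a matrix protein of the SPARC family, Pcsk6 a proprotein convertase, and Serping1 the inhibitor of the complement cascade. Within captures the r of Sparcl1 with the set ran from 0.59 in Nov11 to 0.71 in Nov4. The most negative were Cthrc1 (-0.56), Postn (-0.53), Ltbp2 (-0.49), Palld (-0.49) and Fn1 (-0.48). Cthrc1 had r = -0.83 within Jul29 and -0.60 within Nov4, but 0.05 within Jul24 and -0.01 within Nov11. Jul29 and the pooled cells hold the classes of the selecting contrast, so their r restates it in part. For single genes the most like outside the set were Gstm1 for Gsn (0.64), Plac9b (0.42) and Lpl (0.51), and Sparcl1 for Entpd2 (0.58) and Abca8a (0.52). They were Pcsk6 for Scara5 (0.54) and Dpep1 (0.58), Tcf4 for Smoc2 (0.55) and Gpx3 for Dpt (0.55). Gpx3, like Dpt, was about as high in Postn-traced (11.40) as in Postn-negative cells (11.60).

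Relatives of the 9 genes were followed in the comparison of activated with resident Tcf21-traced cells, in which 60 of the 4028 more widely detected genes were lower and 708 higher by more than 2 log2 units. Beside Abca8a, 2 of 5 other ABCA transporters were lower, Abca6 (-2.32) and Abca9 (-2.33), and none was higher. Beside Smoc2, 1 of 5 SPARC family genes was lower, Sparcl1 (-3.48). None of 5 gelsolin family genes, 8 ecto-nucleotidases, 2 class A scavenger receptors and 1 dipeptidase passed 2 log2 units either way. Most of these could not have been lower by that much, because 2, 2, 1 and 0 of them had a resident mean above 2, a count made after the values were seen. Dpep2, the dipeptidase, had a mean of 0 in both classes. Of the ABCA transporters 3 and of the SPARC family 3 had such a mean, as had all 9 genes of the set and 2443 of the 4028 genes. Of 8 genes of lipase and fatty acid handling 1 was higher, Lmf1 (2.09), which encodes a factor that matures lipases. Of the dermatopontin partners, Fn1 was higher (4.57) and Dcn and Bgn were not past 2 log2 units.

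Of 12 genes of resident fibroblasts, a list written with these data known, 3 were lower in activated Tcf21-traced cells, with Pdgfra the lowest (-2.95), and none was higher. Of 14 myofibroblast genes, drawn by the study on these cells and so not independent of them, 8 were higher and none lower. Postn is among the 8, and its difference (8.51) is set in part by the labels, since resident Tcf21-positive cells with Postn form a class of their own. The 9 genes of the set had a lower median (-2.95) than the resident fibroblast list (-0.56). Of the 12 genes of that list 9 had a resident mean above 2, against all 9 of the set. The set was also chosen with results of these cells known. In the selecting contrast of Postn-traced with Postn-negative cells, 7 of the 12 resident genes were lower and 11 of the 14 myofibroblast genes, Postn among them, higher, where 90 of the 4028 more widely detected genes were lower and 589 higher.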

How the data were processed

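The deposited table holds log2 (TPM + 1) per gene and cell, made by the authors from single-end 100-base reads. Its title says FPKM and its header TPM, and totals of 999257 to 1000000 per cell fit TPM. The submitters' processing notes name Bowtie 1.0.0, eXpress 1.5.1 and the build mm10. A further 3 columns matched no sample and were not used, and no cells had identical values. The SMARTer and Nextera kits do not mark strand. Classes and captures follow the labels. Class means, SDs, shares above 5 TPM and correlations were computed with Python 3.11.15, NumPy 2.4.6, pandas 2.3.3 and SciPy 1.17.1, figures with Matplotlib 3.10.9, and the steps were checked on simulated data.

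A gene counts as lower when its class mean is more than 2 log2 units below. The genes and lists were chosen with earlier results of these data known. Named are the 10 genes, Postn, Col1a1, Tcf21 and Pdgfra, family and pathway lists, and the 5 most and 5 least like genes by correlation. At least 3 markers were above 5 TPM in 1 cell for the myeloid list, a resident Postn-negative cell. This held in 5 cells for pericyte, 2 for cardiomyocyte, 1 for epicardial, 1 for Schwann and 0 for endothelial and adipocyte lists. The adipocyte list had 2 of 6 genes in the table. Positions are those of GENCODE vM21 (GRCm38), and shared 100-base pieces were counted in its transcripts. Alternatives were other averages, pseudocounts, minimums, centring, and leaving out shallow cells.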

Additional observations from a re-analysis of the deposited data

How the results depend on the processing

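Over the alternatives the median difference of the set ran from -6.05 to -2.49 (-3.66 as reported) for Postn-traced against Postn-negative cells, -3.46 to -1.64 (-2.95) for activated against resident Tcf21-traced cells, -5.60 to -2.54 (-4.38) for Postn-traced against resident Tcf21-traced, -3.90 to -1.23 (-3.17) for activated Tcf21-traced against Postn-negative, -1.42 to -0.41 (-1.42) for untraced Postn-positive against Postn-negative, 0.26 to 0.89 (0.86) for activated against resident Postn-negative and 0.62 to 0.93 (0.88) for Tcf21-traced against untraced Postn-positive cells of Nov4. It changed sign for scar against Postn-traced (-1.64 to 0.51, -0.27 as reported) and resident Tcf21-traced against resident Postn-negative cells (-0.22 to 0.32, 0.26 as reported). Leaving out the resident Postn-negative cell lowest in Gsn, chosen after seeing the data, turned the median pairwise r of that class from 0.377 to -0.054. Differences of single genes beyond 2 log2 units were recomputed 226 times, and all kept their sign and 199 were still beyond 2. These counts overstate the agreement. Leaving out shallow cells removed no cell outside Nov11, so in every comparison without Nov11 cells that alternative repeats the reported value. The counts also include the selecting contrast. Count of genes lower by more than 2 log2 units: averaging on the linear scale gave 0 for untraced Postn-positive against Postn-negative cells, 2 for activated against resident Tcf21-traced cells, 0 for activated against resident Postn-negative cells and 0 for scar against Postn-traced cells. Taking medians over cells gave 1 for activated against resident Postn-negative and 4 for scar against Postn-traced cells, and a pseudocount of 5 gave 0 for the former. A limit of 1 log2 unit gave 6 for untraced Postn-positive against Postn-negative and 1 for resident Tcf21-traced against resident Postn-negative cells.

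Median number of the genes per cell: a minimum of 1 TPM changed it to 9 in resident Tcf21-traced and resident Postn-negative cells, 6 in the resident Postn-positive cell and in Postn-traced cells, and 7 in untraced Postn-positive cells of Nov4. Any value over 0 gave 9 in resident Tcf21-traced, 9 in resident Postn-negative, 9 in resident Tcf21-positive Postn-positive, 6 in the resident Postn-positive, 7 in Postn-traced and 7 in untraced Postn-positive cells of Nov4, and 5 in those of Nov11. Of the 5 most like genes, 2 were shared within Jul24, 3 within Jul29, 2 within Nov4 and 1 within Nov11. Of the 5 least like, 2 were shared by Spearman's rho, 0 within Jul24, 3 within Jul29, 1 within Nov4 and 0 within Nov11. The cause of these changes was not tested.

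Summing Plac9a and Plac9b was not run, because Plac9a has no row. No paired analysis was possible because no label ties cells to mice and no test was run. Reads of single cells are not given. The 7 shallow cells were all of Nov11, 6 of the scar and 1 of the untraced Postn-positive class.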
